A study of Homo sapiens with 24 samples.

Results

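The genes described here are the protein-coding ZNF genes, taken as those whose RefSeq symbol is ZNF followed by digits, that carried an m1A peak in at least 2 of 10 deposited peak lists. The members were thus chosen by their number of peak calls. They number 90, out of 477 such genes in the gene table and out of 172 with a peak in any list. N1-methyladenosine (m1A) is a methyl mark on the base-pairing edge of adenosine in RNA. It was mapped in polyadenylated RNA of HEK293T cells, a human embryonic kidney line, by pulling down RNA fragments with an antibody against m1A and calling peaks with MACS2, a program that marks places where coverage exceeds the local background.

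The 24 libraries form 12 groups of 2 replicates. Cells with ALKBH3 knocked out (KO) and wild-type cells (WT) each had input RNA, pulldown, and pulldown followed by a demethylase that removes the mark. Wild-type cells given 50 µM H2O2 for 30 min (H2O2), wild-type cells kept without serum for 16 h (Starve) and untreated wild-type cells (UT) had input and pulldown. All were grown in medium with serum before treatment. The labels do not say whether the knockout was 1 clone, nor whether replicates came from separate cultures. The descriptions of the UT libraries point to the Starve lists, while the file naming gives UT a pair of lists of its own. The naming was followed, and each statement about UT depends on it.

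ZNF genes encode zinc finger proteins, in which short loops held by a zinc ion, most often of the C2H2 kind, bind DNA and sometimes RNA. Many belong to the KRAB family, whose members recruit the corepressor TRIM28 to silence genes and transposable elements, and lie in gene clusters that grew by duplication. Others work outside transcription, such as ZNF598, a ubiquitin ligase that senses collided ribosomes, and ZNF207 (BuGZ), a spindle protein that binds BUB3. In mRNA, m1A has been described mainly near the 5′ end, and ALKBH3 is a demethylase of m1A and other alkylated bases.

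A peak is placed here by its summit, counted in nt from the start of a RefSeq transcript, and is called near when the summit lies within 300 nt and deep beyond that. Because the most recurrent ZNF peaks were near the start, the bases that lead up to it are shown for the 4 genes with a near region in the most lists whose sequence can be printed (ZNF207, ZNF580, ZNF768 and ZNF358), and for 2 genes with recurrent deep regions (ZNF579 and ZNF628). These genes were picked after their values were seen. The bases shown lie before the RefSeq start, outside the transcript that begins there. The start used for a gene was not matched to the transcript that carried its peaks. A link between these bases and m1A was not tested. Each line gives the 100 bases just before the RefSeq start, 5′ to 3′, from RefSeq on GRCh38.p14, with GC boxes in capitals (GGGCGG, or CCGCCC on the other strand).
ZNF207: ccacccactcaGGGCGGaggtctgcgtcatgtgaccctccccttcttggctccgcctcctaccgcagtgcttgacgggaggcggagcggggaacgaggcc
ZNF580: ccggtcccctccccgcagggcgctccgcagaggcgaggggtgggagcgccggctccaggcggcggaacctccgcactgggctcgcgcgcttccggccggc
ZNF768: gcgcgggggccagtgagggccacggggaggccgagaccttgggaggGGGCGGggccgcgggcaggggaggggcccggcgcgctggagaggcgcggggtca
ZNF358: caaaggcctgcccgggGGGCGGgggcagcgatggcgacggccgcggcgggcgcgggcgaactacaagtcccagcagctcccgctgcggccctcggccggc
ZNF579: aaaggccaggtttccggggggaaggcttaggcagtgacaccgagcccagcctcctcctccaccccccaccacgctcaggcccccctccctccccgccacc
ZNF628: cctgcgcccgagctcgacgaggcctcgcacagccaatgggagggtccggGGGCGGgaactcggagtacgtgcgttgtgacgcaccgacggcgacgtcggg
They lie at chr17:32350057-32350156, plus strand (ZNF207), chr19:55640902-55641001, plus strand (ZNF580), chr16:30526567-30526666, minus strand (ZNF768), chr19:7516003-7516102, plus strand (ZNF358), chr19:55580849-55580948, minus strand (ZNF579) and chr19:55476517-55476616, plus strand (ZNF628). The stretch of ZNF768 was 83.0% G or C, that of ZNF580 81.0% and that of ZNF358 80.0%, while that of ZNF207 was 69.0%. The 2 genes with deep regions had 71.0% (ZNF579) and 72.0% (ZNF628), both above ZNF207.

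Over the 250 bases before the start, 80 of the 90 genes had a sequence in the table, and their median GC content was 66.4%, against 66.8% for other protein-coding genes with a peak in 2 or more lists and 62.4% for all protein-coding genes. ZNF genes with no peak in any list had 58.8%. In the first 50 transcribed bases the medians were 68.0% for the matched genes, 70.0% for other protein-coding genes with a peak in 2 or more lists, 62.0% for ZNF genes with no peak and 64.0% for all protein-coding genes. The 18 matched genes with a near region in 3 or more lists had 72.0%. A GC box lay in the 250 bases of 54 of the 80 genes (67.5%), in 73.4% of other protein-coding genes with a peak in 2 or more lists, and in 56.0% of all protein-coding genes (8872 of 15843). Among the 80 it lay in 66.7% of genes with a near region in 3 or more lists and in 73.3% of genes with deep summits only. These are descriptions of the windows, with no test.

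Of the 477 ZNF genes 36.1% had a peak in any list, against 44.3% of other protein-coding genes. Of the 172 with any peak, 52.3% had peaks in 2 or more lists, against 73.1% of the 8669 other protein-coding genes with a peak. Among the 90, 41 were in 2 lists, 14 in 3, 8 in 4, 10 in 5, 9 in 6, 4 in 7, 1 in 8, 3 in 9 and none in 10. Just outside the rule, 82 ZNF genes had a peak in 1 list. Of the summits of the 41 genes in 2 lists 26.2% lay within 300 nt of the transcript start, and of those of the 82 genes 26.4%. The rule chose genes by these counts, so they carry no test. The fold of a peak, over the background around it, is the authors' own value. It describes and filters peaks, and the lower fold of 2 replicates ranks the genes named, but folds of different lists are not compared as levels of the mark.

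All 90 genes had a peak in an H2O2, Starve or UT list, as did 98.9% of the other genes in 2 or more lists, and 33 (36.7%) also had one in a KO or WT list, against 57.2% of those other genes. The remaining 57 appeared in the H2O2, Starve and UT lists alone. By list, 13 and 17 of the 90 were called in KO, where 30.5% and 31.3% of all protein-coding genes in 2 or more lists were called. In WT the numbers were 11 and 22, beside 18.5% and 30.2% of all such genes. H2O2 called 40 and 24, beside 48.0% and 28.2%. Starve called 61 and 47, beside 63.0% and 52.3%. UT called 40 and 48, beside 49.3% and 55.1%.

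As shares of the 90, the KO lists called 14.4% and 18.9%, where 30.8% and 31.5% of other genes were called, and the WT lists 12.2% and 24.4%, where 18.6% and 30.3% were. In Starve the shares were 67.8% and 52.2%, where 63.0% and 52.3% of other genes were called. These shares use the calls that chose the genes and are a description. The lists differ in size, with 2175 to 3524 peaks in KO and WT and 3903 to 11362 in H2O2, Starve and UT, and the share of ZNF genes called went from 12.2% in the smallest list to 67.8% in the largest. The part of list size in the differences between the 2 sets of lists was not tested.

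**Figure D1:**
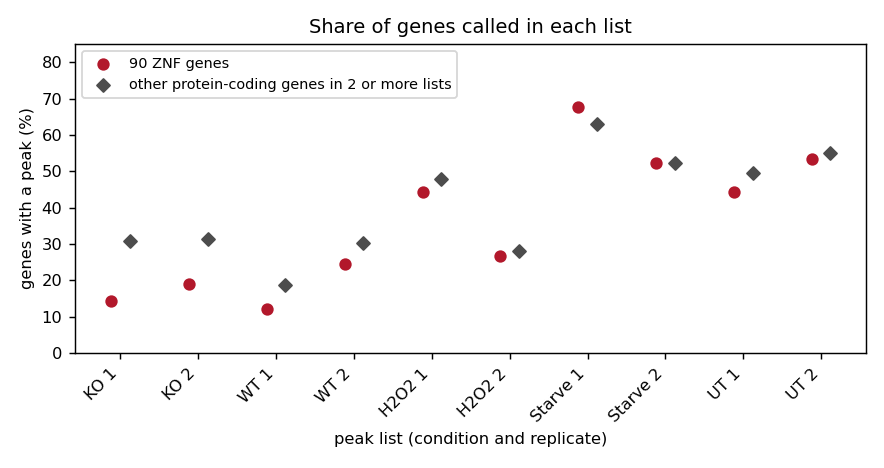
Share of genes with a peak (vertical axis, %) in each of the 10 lists (horizontal axis) for the 90 ZNF genes (circles) and for other protein-coding genes in 2 or more lists (diamonds). The circles lie at 14.4% and 18.9% in the KO lists, where the diamonds lie at 30.8% and 31.5%.

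The ZNF genes found in the most lists had a near region that came back at almost the same place. ZNF207 had a peak in 9 lists, with folds of 8.11 and 7.81 in KO, 4.08 and 10.5 in WT, 7.97 in 1 H2O2 list, 11.5 and 4.84 in Starve, and 4.34 and 11.9 in UT. Its summits were at nt 124 and 128 in KO, 108 and 163 in WT, 122 and 123 in Starve, and 120 and 123 in UT, and only the H2O2 summit, at nt 273, stood away. ZNF580 also had 9 lists, with folds of 2.44 and 2.46 in KO, 1.92 and 3.38 in WT, 5.32 in 1 H2O2 list, 4.89 and 9.37 in Starve, and 2.22 and 2.83 in UT. On its transcript NM_207115 the shared region ran from nt 23 to 252. The folds of 4.89 in Starve and 2.83 in UT belong to NM_016202, and on NM_207115 these lists had 1.52 and 1.89. ZNF580 overlaps the protein-coding gene ZNF581, and reads from the pair cannot be told apart here.

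ZNF768 had peaks in 9 lists, 8 of them with a summit in the region from nt 39 to 247. Its fold was 2.01 in 1 KO list, 2.78 and 4.88 in WT, 3.47 and 17.6 in Starve, and 3.47 and 8.82 in UT. In H2O2 its peaks of the highest fold, 3.63 and 4.1, were deep, at nt 969 and 2077. The first H2O2 list also held the near peak, with a fold of 2.98 and its summit at nt 142. ZNF358 had the same near region, nt 23 to 221, in all 8 of its lists, with summits from nt 77 to 128 and folds from 2.57 to 6.37. ZNF706 (7 lists, nt 54 to 269) and ZNF428 (6 of its 7 lists, nt 2 to 282) followed, and then ZNF346, which encodes a protein that binds double-stranded RNA, and ZNF598, each with a near region in 5 lists.

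ZNF207 had the highest fold of the 90 in the first KO list (8.11), the second WT list (10.5), the first Starve list (11.5) and the second UT list (11.9). In the other lists the highest belonged to ZNF706 in the second KO list (9.25), ZNF398 in the first WT list (8.75), ZNF513 in the first H2O2 list (14.3), ZNF346 in the second H2O2 list (30.8), ZNF777 in the second Starve list (20.5) and ZNF341 in the first UT list (10.2). The peak of ZNF346 at 30.8 had its summit at nt 882, whereas its 5 other lists had summits from nt 133 to 170.

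**Figure D2:**
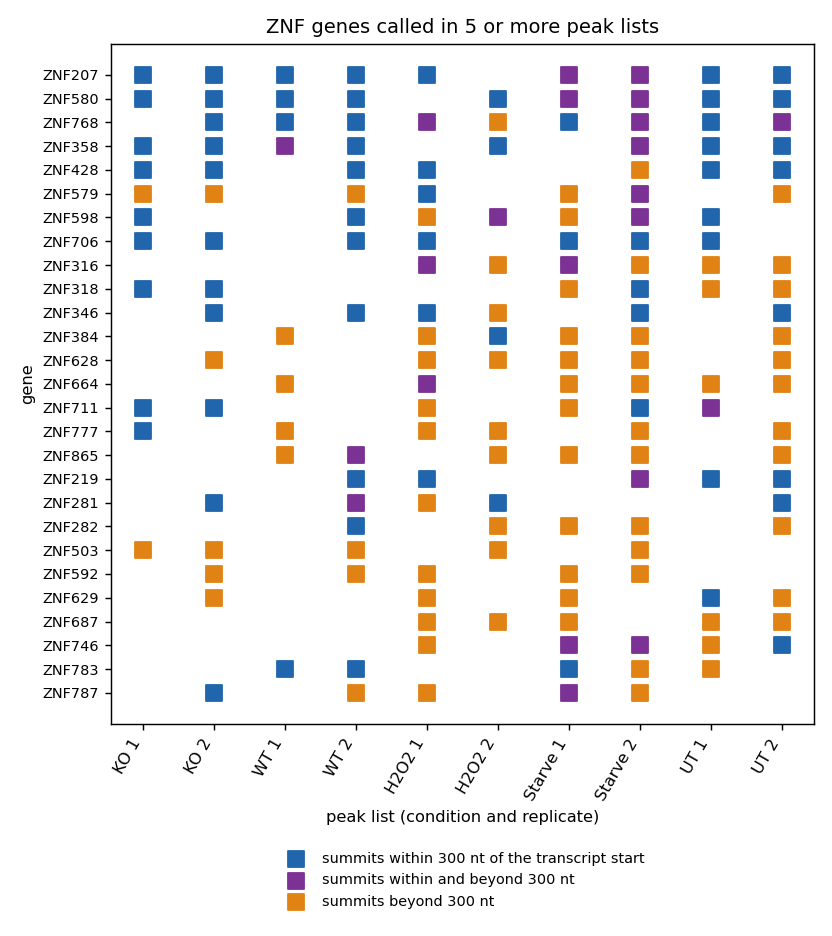
The 27 ZNF genes called in 5 or more lists (rows, by number of lists) in each of the 10 lists (columns), where a square marks a call and its colour the position of the summits relative to 300 nt from the transcript start. ZNF207, ZNF580, ZNF358 and ZNF706 have a near summit in every list that called them, and ZNF628, ZNF687 and ZNF592 are deep in every one.

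Deep regions came back too, in fewer genes. ZNF579 had a region at nt 1338 to 1885 in 5 lists, with summits from nt 1413 to 1572, and both KO lists placed it within 11 nt of each other, at nt 1527 and 1516. ZNF777 had a narrow region at nt 2659 to 2781 in 5 lists, with summits from nt 2694 to 2725. ZNF628 was called at nt 332 to 472 in 4 lists, with folds of 10.1 and 18.5 in H2O2 and both summits at nt 394. ZNF865 had a region at nt 1236 to 1642 in 4 lists, and ZNF592, whose protein works with ZNF687 and ZMYND8, had one at nt 3914 to 4043 in 3 lists. In ZNF384 and ZNF664 deep regions of 3 lists were seen on more than 1 transcript, which repeat the same signal.

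Over all 567 peaks of the 90 genes, on 153 transcripts, 216 summits (38.1%) were near, against 42.1% for the other genes. The median summit was at nt 683, against nt 465. In these values a signal on several transcripts of a gene counts once for each of them. They also pool the lists. The KO lists, where most summits were near, called 14.4% and 18.9% of the 90 and 30.8% and 31.5% of other genes. The share of near summits was 66.7% and 78.3% in KO and 47.1% and 68.6% in WT. It was 34.8% and 50.0% in H2O2, 24.6% and 26.3% in Starve, and 43.2% and 31.0% in UT. Other genes had 73.1% and 72.0% in KO, 56.3% and 74.6% in WT, 34.5% and 46.1% in H2O2, 32.6% and 29.6% in Starve, and 38.0% and 32.0% in UT. In both sets of genes each KO list lay above each H2O2, Starve and UT list. In other genes both WT lists did so too, and in ZNF genes the second WT list did. The first WT list (47.1% of 17 ZNF peaks) lay below the second H2O2 list alone (50.0%). Only 1 summit lay in the first 60 nt, and 215 between nt 61 and 300. With 1 peak per gene and list, that of the highest −log10 q-value, 43.3% of ZNF summits were near. KO then had 76.9% and 70.6%, against 75.2% and 74.5% in other genes. H2O2 had 35.0% and 45.8%, against 41.4% and 50.7%. In each of these lists the order of the 2 sets of genes was reversed, while in WT, Starve and UT it stayed.

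By gene, 8 of the 90 had near summits only, 50 had both kinds, and 32 (35.6%) had deep summits only, against 23.7% of other genes. The deep-only group held ZNF24, with 4 lists and summits from nt 1089 to 5701, and ZNF687, with 5 lists. Its median number of lists was 2, against 4 for the genes with both kinds. The near-only group held ZNF706 and ZNF839, and its median was also 2 lists.

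**Figure D3:**
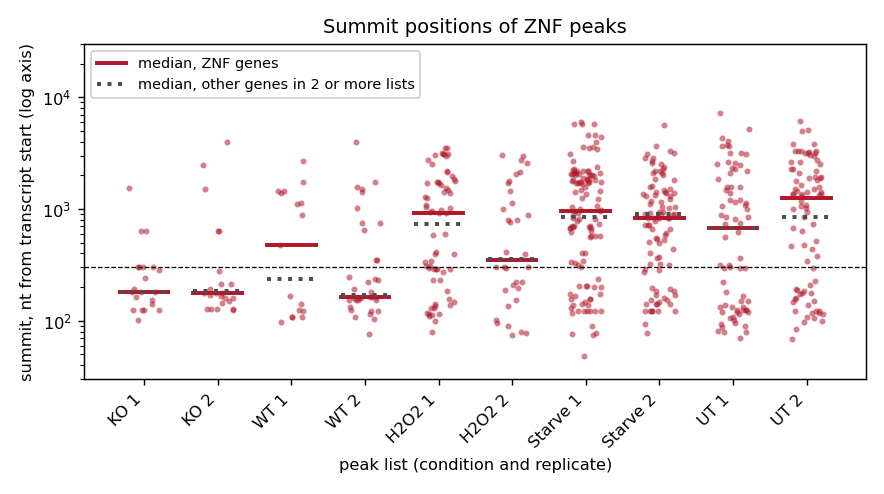
Summit position of each ZNF peak in nt from the transcript start (vertical axis, log scale) by list (horizontal axis). Points are peaks, solid bars their medians, dotted bars the medians of other genes in 2 or more lists, and the dashed line marks 300 nt. Medians sit at nt 180 and 178 in KO and at nt 964.5 and 827 in Starve.

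Of ZNF genes called in either replicate, both called 9 of 21 in KO, 7 of 26 in WT, 11 of 53 in H2O2, 32 of 76 in Starve and 20 of 68 in UT. As shares these were 42.9% in KO, 26.9% in WT, 20.8% in H2O2, 42.1% in Starve and 29.4% in UT, and for other genes 56.2%, 29.4%, 25.7%, 41.9% and 37.9% in the same order. Summed over the 5 conditions this was 79 of 244 (32.4%), against 37.9% for other genes. KO gave 21 of these 244 cases, and 2527 of the 18712 cases of other genes. The 2 sums thus weigh the conditions differently. Genes with a near summit were repeated in 43.7% of cases, and genes with deep summits alone in 20.3%. The same shares in other genes were 46.2% and 25.9%. A gene counted as near when either replicate had a near summit. Genes called in both replicates thus had more summits that could count, which favours a higher share for near.

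Being called in both replicates often did not mean being called at the same place. In KO and WT all 9 and all 7 repeated genes had overlapping peaks, with a median distance between summits of 10.0 nt in KO and 37.0 nt in WT. In H2O2 4 of 11 had them, in Starve 12 of 32 and in UT 7 of 20. Other genes had them in 97.8% of cases in KO, 87.3% in WT, 49.1% in H2O2, 43.3% in Starve and 46.5% in UT. Summed over conditions, 39 of 79 repeated genes (49.4%) had overlapping peaks, against 60.2% in other genes. KO and WT, where most did, gave 9 and 7 of the 79, and 1421 and 703 of 7090 cases in other genes. The 2 sums thus weigh the conditions differently, and within KO and WT the ZNF shares were the higher. Where the peaks overlapped in H2O2, the median distance between summits was 5.5 nt, as in ZNF628 (0 nt) and ZNF839 (4 nt).

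Joining overlapping peaks over all lists, on 1 transcript per gene, gave 248 regions in the 90 genes. Of these 185 (74.6%) were held by 1 list, against 67.6% of regions in other genes, and 63 by 2 or more. Among regions of 1 list 14.6% were near, and among regions of 2 or more lists 55.6%. In 41 of the 90 genes (45.6%, against 28.7% of other genes) no region on the transcript used for the gene was shared between lists. Over all transcripts 40 of the 90 had no shared region, since ZNF503 had one on a non-coding transcript. Genes in few lists have fewer chances to share a region. In exactly 2 lists were 41 of the 90, against 1799 of the 6338 other genes. The part of this in the 45.6% and 28.7% was not tested. Of the 41 genes in exactly 2 lists, 9 had both lists from 1 condition.

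**Figure D4:**
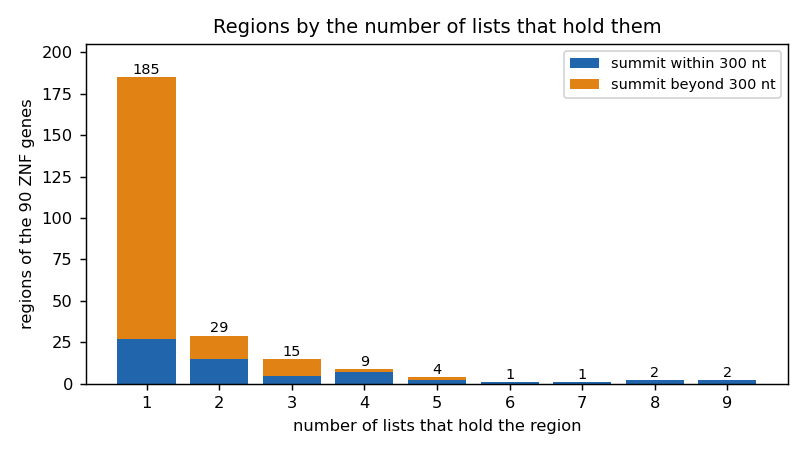
Number of regions of the 90 ZNF genes (vertical axis) by how many lists hold them (horizontal axis), split into near (lower part) and deep (upper part). The 185 regions of 1 list are mostly deep, and the 6 regions of 6 or more lists are all near.

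The comparison of KO with WT asks which m1A sites depend on ALKBH3. A gene was taken as called in a condition alone when both of its lists held a peak and neither list of the other condition did. Absence from a list means not called, and for 1 gene in 2 lists against 2 an exact test cannot go below p = 0.333. KO alone held 2 of the 33 ZNF genes called in either condition, where 16.9% of 3657 genes were so called. They were ZNF711, with folds of 3.98 and 5.08 at nt 164 and 150, and ZNF318, with 4.09 and 2.31 at nt 287 and 277. Mutations in ZNF711 cause X-linked intellectual disability. Both regions were also called in cells with wild-type ALKBH3: that of ZNF711, nt 93 to 243, in 1 Starve and 1 UT list, and that of ZNF318, nt 111 to 376, in both Starve lists.

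WT alone held 3 of the 33, beside 5.17% of all genes. These were ZNF865 (4.16 and 5.93, summits at nt 1457 and 1429), ZNF783 (3.51 and 5.93, nt 166 and 107) and ZNF703 (2.17 and 3.36, nt 1729 and 1731), a transcriptional cofactor studied in luminal breast cancer. ZNF207, ZNF358 and ZNF580 were called in all 4 lists, beside 10.1% of all genes. With peaks of 4-fold or more, KO alone held 0 genes and WT alone 2. Without KO replicate 1 or 2, KO alone held 5 and 4 genes, and without WT replicate 1 or 2 it held 2 and 6. Without KO replicate 1 or 2, WT alone held 3 and 4 genes, and without WT replicate 1 or 2 it held 9 and 6. Both directions are small counts. Leaving out a list loosens the rule for a condition alone, so here and below such counts could only stay or rise. Counts at other folds, of regions or with a list left out were made for the ZNF genes alone, with no share over all genes.

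Oxidative stress was compared with untreated cells. H2O2 alone held 1 of 82 ZNF genes, beside 3.03% of 5845 genes. It was ZNF839, with folds of 10.9 and 21.0 and summits at nt 99 and 95, and no peak in any other list. UT alone held 8 of the 82, beside 10.3% of all genes, and these were ZNF548, ZNF337, ZNF398, ZNF496, ZNF318, ZNF689, ZNF319 and ZNF653. Their lower fold of the replicates ran from 4.62 in ZNF548 to 2.18 in ZNF653.

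At the level of regions, UT alone against H2O2 held ZNF207, ZNF219 and ZNF496 instead, and the 8 genes shared only ZNF496 with these. In ZNF548 the UT summits were at nt 2602 and 296, and in ZNF337 at nt 115 and 1063, so the replicates called different places. ZNF316, ZNF687 and ZNF768 were called in all 4 lists, beside 8.11% of all genes. Without H2O2 replicate 1 or 2, H2O2 alone held 5 and 10 genes, and without UT replicate 1 or 2 it held 2 and 7. UT alone then held 14 without H2O2 replicate 1, 20 without UT replicate 1 and 17 without UT replicate 2.

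Serum-starved cells were also compared with untreated cells. Starve alone held 10 of 88 ZNF genes, beside 8.09% of 6193 genes, and UT alone 3, beside 5.47%. The 8 with the highest lower fold were ZNF787 (11.1 and 6.84), ZNF592 (6.36 and 12.7), ZNF367 (6.16 and 6.68), ZNF688 (9.59 and 6.02), ZNF507 (5.45 and 16.6), ZNF12 (5.05 and 17.9), ZNF236 (3.64 and 10.0) and ZNF444 (3.28 and 5.1). ZNF639 (3.23 and 17.1) and ZNF431 (2.93 and 9.64) completed it. In 6 of these 10 genes the 2 Starve lists were the only lists with a peak.

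Of these 10, ZNF367 (nt 683 and 720) and ZNF639 (nt 302 and 362) had peaks that overlapped on a transcript in the Starve replicates. ZNF12 had summits at nt 403 and 186, ZNF236 at nt 637 and 2855, and ZNF431 at nt 1979 and 2882. At the level of regions, taken on each transcript, Starve alone held ZNF316, ZNF318, ZNF367, ZNF580, ZNF639 and ZNF706. ZNF706 counted through NM_016096 alone, and on its other transcripts the first UT list held the region too. ZNF580 counted through NM_001163423, while its near region on NM_207115 was in both UT lists. Counted by gene, Starve alone held 1 when every list was cut to its 2175 strongest peaks. The genes of UT alone were ZNF548, ZNF337 and ZNF496. ZNF207, ZNF316, ZNF318, ZNF580, ZNF664, ZNF746 and ZNF768 were in all 4 lists, beside 13.3% of all genes. ZNF746 (PARIS) represses PGC-1α and is a substrate of parkin. Starve alone held 16 genes without Starve replicate 2, and 17 and 18 without UT replicate 1 and 2, and UT alone held 6 to 9 when any list was left out.

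By their labels UT and WT are the same kind of cell, untreated and wild type. UT lists held 7871 and 9295 peaks and the WT lists 2175 and 3410. UT alone held 12 of 73 ZNF genes, beside 17.1% of 5392 genes, among them ZNF629 (9.25 and 5.16), ZNF548 (4.62 and 7.26), ZNF296 (4.44 and 5.47) and ZNF337 (4.44 and 6.43). WT alone held 1, ZNF703, beside 1.91%. At the level of regions UT alone held 1 gene, ZNF496, and WT alone 3. Without UT replicate 1 or 2, UT alone held 31 and 28 genes, and without WT replicate 1 WT alone held 5. ZNF207, ZNF358, ZNF580 and ZNF768 were in all 4 lists, beside 7.14% of all genes. The UT lists serve in 3 of these comparisons and the WT lists in 2, so the gene counts are not independent of each other.

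The demethylase libraries show where within a region coverage is spread after the mark is removed. The deposited windows give scaled coverage of the treated pulldown and of the pulldown in steps of 5 nt. In KO they cover 8 of the 90 genes and in WT 7, with ZNF207, ZNF358 and ZNF580 in both. The treated coverage of the 2 replicate files of a genotype had a constant ratio (coefficient of variation over windows below 1e-06) in 770 of 773 KO transcripts and 349 of 350 WT transcripts, against 0 of 775 and 0 of 355 for the pulldown, so the treated library was counted once.

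ZNF358 had its treated coverage nearer to the start than the pulldown in all 4 files, which hold 1 treated library per genotype. The mean position of treated coverage was nt 106.6 and 111.5 in KO, with the pulldown at nt 118.8 and 134.3, and nt 113.7 and 113.5 in WT, with the pulldown at nt 146.0 and 143.2. The differences were -12.1 and -22.8 nt in KO and -32.2 and -29.8 nt in WT. ZNF580 had the opposite sign in all 4, with 11.5 and 10.4 nt in KO and 2.55 and 4.82 nt in WT. Over all transcripts the median difference was 0.268 and 0.0783 nt in KO and -0.673 and -4.55 nt in WT. ZNF428, with -9.72 and -19.6 nt in KO, went the way of ZNF358. ZNF207 differed between replicates and transcripts in WT, with -7.22 and -43.8 nt on NM_003457, 1.47 and -40.4 nt on NM_001032293, and 11.5 and -32.1 nt on NM_001098507. In KO its 3 transcripts lay between -0.533 and -11.8 nt.

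**Figure D5:**
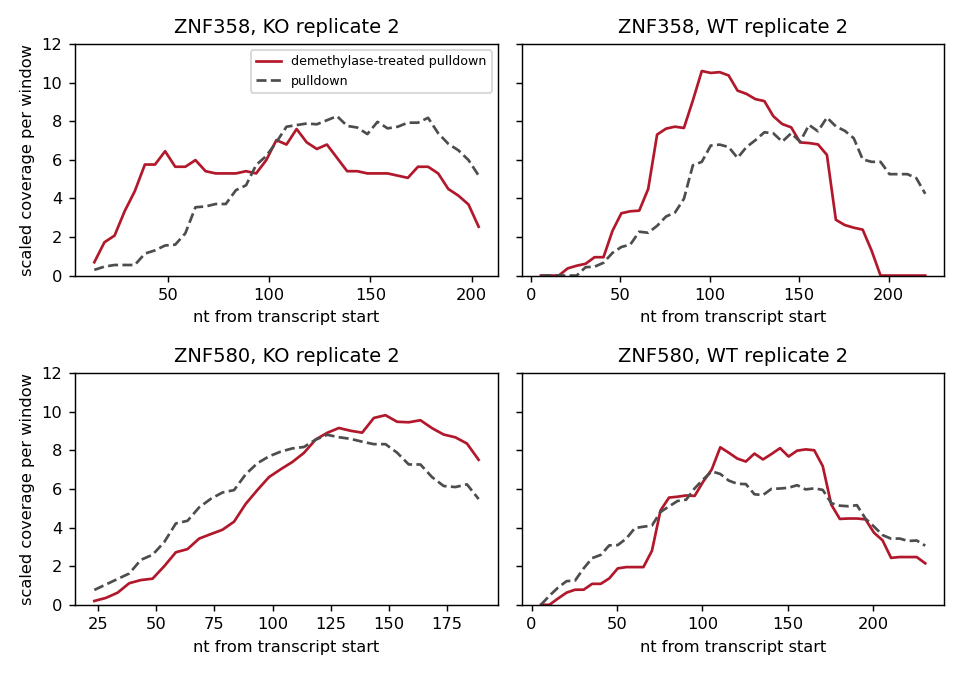
Scaled coverage per window (vertical axis) of the treated pulldown (solid) and the pulldown (dashed) along the first part of ZNF358 (upper row) and ZNF580 (lower row), in nt from the transcript start, for replicate 2 of KO (left) and WT (right). Treated coverage of ZNF358 lies nearer to the start than the pulldown, and that of ZNF580 further from it.

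With 1 treated and 2 pulldown libraries, limma on log2(coverage + 1) called 0 of 60 windows of ZNF580 and ZNF711 in KO, beside 0.0% of 28056 windows, and 0 of 34 windows of ZNF768 in WT, beside 0.0% of 12810 (adjusted p under 0.05). At an unadjusted p under 0.05 the numbers were 17 of 60 (28.3%, all of ZNF580), beside 23.2% of all KO windows, and 0 of 34, beside 27.8% of all WT windows. The smallest adjusted p among the 17 was 0.153 (limma). Over all windows the WT count depended on the setting: with a pseudocount of 0.1 limma called 788 of 12810 (6.15%) and with a mean coverage of 1 or more 629 of 10095 (6.23%), with 0 of ZNF768 in both. The fit had 1 treated library, and on simulated data it recovered planted changes in part for KO and none for WT. A count of 0 called windows thus does not show that coverage was unchanged. No window of these genes was held by all 4 files, so KO was not tested against WT.

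Genes that work with KRAB zinc finger proteins had peaks in 2 or more lists in 14 of 18 cases (77.8%), against 18.9% of ZNF genes and 32.4% of all other protein-coding genes, with TRIM28, the corepressor, CHD4, a remodeller of the NuRD complex, and the DNA methyltransferase DNMT1 in 7 lists each. Of 129 other C2H2 genes 42 did (32.6%), led by YY1 with 9 lists, and of 18 CCCH genes, whose fingers bind RNA, 10 did (55.6%). The list of C2H2 genes was made by symbol and holds ZFP36, which is of the CCCH kind. Genes known in HEK293T cells had peaks in 2 or more lists in 5 of 7 cases, and all 7 had a peak in some list. Markers of other cell types had peaks in 2 or more lists in 2 of 21 cases, SYP with 4 lists and COL1A1 with 2. Peak lists do not give expression.

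In the genome, 43 of the 90 (47.8%) have another ZNF gene as their direct neighbour, against 53.7% of ZNF genes with a peak in 1 list and 74.8% of the 305 with none. Of the 90, 22 overlap another protein-coding gene. In the lists, 24 peaks of different ZNF genes had the same pileup, length and fold as another in their list. This was not counted in other genes, and equal values need not mean shared reads. For example, ZNF292, ZNF318 and ZNF319 each had a peak with pileup 21, length 100 nt and fold 2.62 in the second UT list. The part of shared reads was not tested. No source used here states how reads of similar zinc finger sequences were assigned, so values of near-identical family members are uncertain.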

How the data were processed

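m1A pulldown, input and demethylase libraries were made from HEK293T cells. Trim Galore, HISAT and MACS2, and the build hg19, are named without versions in the submitters' processing notes. Peaks were called for each replicate on RefSeq transcripts, per the file headers. Pileup, as deposited, is the coverage signal of a peak's summit and shows no normalization. The fold (a ratio over the local background), the −log10 p-value and the −log10 q-value are as deposited by the authors. The windowed files hold a coverage signal that the authors scaled to about 200 per region, and a score, treated minus pulldown, that was not used. No source used here states how windows were chosen. Library depth is not given in these files, so it is unknown.

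Transcripts were named from a RefSeq gene table (GRCh38.p14, names and neighbours only), and 17019 of 17315 matched (98.3%). Of the peaks, 26 lie on non-coding transcripts of 5 members. Peaks overlapping by 1 nt or more on a transcript formed regions. Genes were named by rule: up to 8 per direction and comparison by the lower replicate fold, up to 10 in the most lists, up to 8 with the deepest repeated region, those with windows, and the highest fold in each list. The members and the lists were chosen with earlier results of these data known.

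The planned window fit, on the log2 ratio per file, was replaced, since the treated library is 1 library per genotype: limma 3.58.1 (R 4.3.3) was run on log2(coverage + 1) after rescaling each library to 100 over the shared windows of a transcript with 10 or more. On simulated data the fit recovered planted changes in part for KO and none for WT. Alternatives used a pseudocount of 0.1, a mean coverage of 1 or more, coverage as deposited and a replicate block. Whether replicates come from separate cultures is not stated, so limma's p-values reflect the spread among these libraries alone, which may be technical.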

Additional observations from a re-analysis of the deposited data

How the results depend on the processing

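The number of genes in 2 or more lists was 60 with peaks of 4-fold or more, 81 at a −log10 q-value from 5 upward and 89 with 1 transcript per gene. It was 30 with the 2175 top peaks of each list, 49 in 3 or more lists and 172 in 1 or more. With peaks of 4-fold or more, KO alone held 0 genes, H2O2 alone 3, UT alone 2 against H2O2 and 4 against WT, and 21.3% of genes were repeated. At a −log10 q-value from 5 upward, H2O2 alone held 3, and UT alone 3 against H2O2 and 6 against WT. With those 2175 strongest peaks alone, Starve alone held 1, UT alone 2 against H2O2, 1 against Starve and 0 against WT, WT alone 3 against UT, 16.2% were repeated and 54.1% of summits were near. With 1 transcript per gene H2O2 alone held 2. At the level of regions, with an overlap of 1 nt, UT alone held 3 against H2O2 and 1 against WT, Starve alone 6, WT alone 3 against UT, and 16.0% were repeated. With an overlap of 50% of the shorter peak, UT alone held 3 against H2O2, 1 against Starve and 1 against WT, Starve alone 2 and WT alone 3 against UT. Within 100 nt 4.94% of summits were near. All these values, and those below with a list left out, are for the ZNF genes alone. Whether other genes shift in the same way was not tested.

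Leaving out 1 list at a time gave 2 to 6 for KO alone and 3 to 9 for WT alone. It gave 2 to 10 for H2O2 alone and 11 to 20 for UT alone against H2O2. It gave 14 to 18 for Starve alone and 6 to 9 for UT alone against Starve, and 14 to 31 for UT alone and 1 to 5 for WT alone between these. Near summits ranged from 36.1 to 41.6%. Repeats need both lists of a condition, so each condition was left out whole, and they ranged from 28.0 to 35.6%. Counts for a condition alone could only stay or rise, since leaving out a list loosens the rule. Beyond this, the cause of these changes was not tested. The lists carry no value for an uncalled gene and no depth, so a lost call cannot be told from low coverage.

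For the windows, a replicate block needs the treated library entered 2 times, which repeats 1 library and makes p-values too small. With the block, KO called 12 windows of the 60 on rescaled coverage, beside 18.3% of all KO windows, and 7 on coverage as deposited, beside 13.7%. Entered 2 times without a block, KO called 28 of 60, beside 40% of all KO windows, and WT 3 of 34, beside 46.8% of all WT windows. These settings other than the block on deposited coverage were chosen after seeing the data. Leaving out a pulldown library left no spread to test and was not run. No paired analysis was possible for the gene calls because conditions were compared by counting lists, with no test across samples.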
